A study of Mus musculus with 12 samples.

Results

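The unfolded protein response and the integrated stress response are followed here in the epithelium of the mouse jejunum, through 36 genes chosen by name. All 36 were found among the 55421 genes of the table, and all 36 were expressed well enough to be tested. They fall into 5 sensors and transducers of the endoplasmic reticulum (ER), 14 ER chaperones and folding enzymes, 7 genes of ER-associated degradation and protein translocation, and 10 genes of the integrated stress response. The study measured bulk RNA of intestinal epithelial cells in Fzd5KO mice at day 1 and day 3, and in Ctrl mice at day 1 and day 3, with 3 libraries in each of the 4 groups. Fzd5 encodes a Wnt receptor of the Frizzled family. The strain, the age, the alleles of the Ctrl mice, the driver and extent of the deletion, and the event from which the days are counted are all missing from the labels. Nor do the labels say that the 3 libraries of a group are from different animals, and p-values therefore measure the spread between these libraries, possibly technical.

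The ER is where secreted and membrane proteins fold. When unfolded protein accumulates there, the sensors IRE1, PERK and ATF6 act: IRE1 splices the Xbp1 mRNA into a form that encodes an active transcription factor, ATF6 is cut to release one, and PERK phosphorylates the translation factor eIF2α. XBP1 and ATF6 raise the genes for chaperones and for degradation, while phosphorylated eIF2α slows most translation and favours that of ATF4, the step that other kinases share and that gives the integrated stress response its name. In the intestine this system matters most to the secretory goblet and Paneth cells, and enterocytes use the same folding machinery for the hydrolases of the brush border. Total mRNA per gene, as measured here, shows neither Xbp1 splicing nor phosphorylation nor protein.

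The Fzd5 level, as a check of the labels, was 32.7 ± 0.694 TPM in Fzd5KO and 46.6 ± 2.94 TPM in Ctrl at day 1, and 38.6 ± 0.969 TPM in Fzd5KO and 64.8 ± 3.95 TPM in Ctrl at day 3 (SD, n = 3 each; TPM, a relative abundance that adjusts for gene length). The genotypes did not overlap on either day, and the two-sided exact permutation p of 0.1 on each day is the smallest that 3 against 3 libraries can give. Read depth is unknown from TPM. Between 21506 and 24467 genes were above 0 per library, with the highest number in replicate 1 of Ctrl at day 1, which also had the lowest mean correlation with its group mates, 0.977 against 0.980 to 0.988 in the other 11 libraries. The 7SL and 7SK RNAs took 19.7% to 27.2% of all TPM, and mitochondrial genes took 7.03% to 10.0%.

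Between genotypes, the members differed by day. At day 1, 0 of 36 were called higher in Fzd5KO and 13 were called lower, among 14510 tested genes of which 2.13% were called higher and 22.8% lower. At day 3, 25 of 36 were called higher and 4 lower, beside 24.3% and 38.5% of all tested genes. A gene is called when limma's moderated test on log2(TPM + 1) gives an adjusted p under 0.05. Fold changes throughout are differences of mean log2(TPM + 1), a scale that understates the change of low genes. They are Fzd5KO minus Ctrl, except where day 3 is set against day 1 within a genotype or the changes of the 2 days are subtracted. The members' median change was -0.16 at day 1, where that of all tested genes was -0.14, and 0.28 at day 3, where that of all tested genes was -0.14. One member, Chac1, reached the level needed for testing only through the 3 Fzd5KO libraries of day 3, so its call there follows partly from that choice, and 24 of the other 35 members were called higher at day 3.

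**Figure D1:**
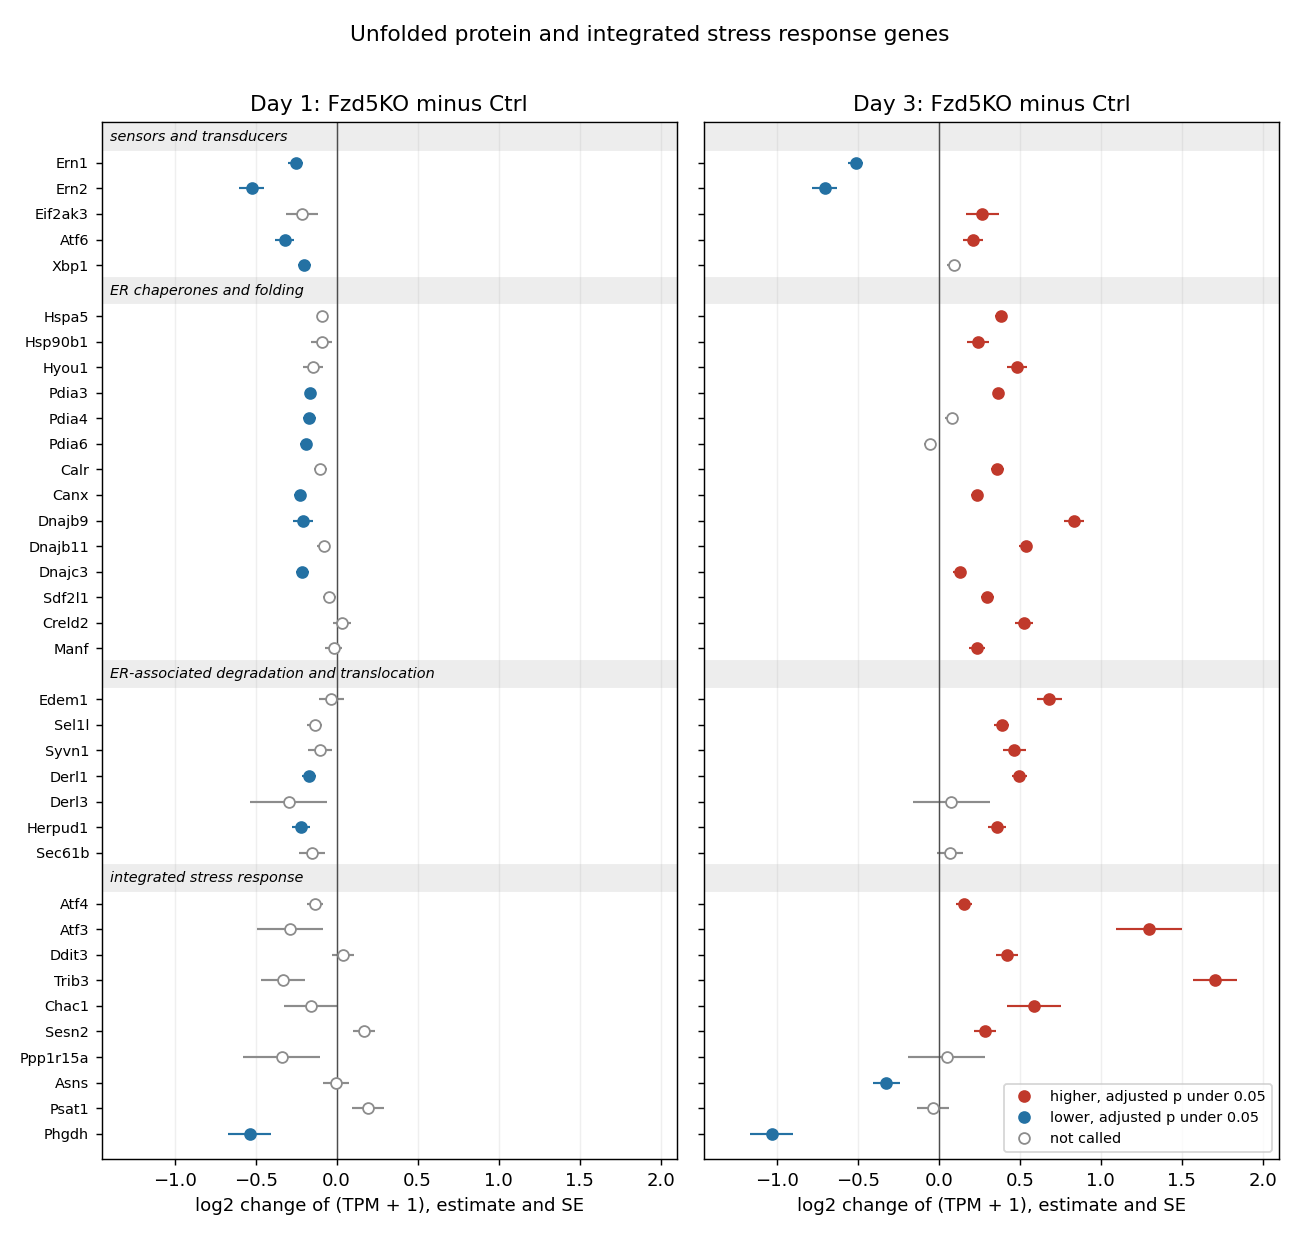
Change of each of the 36 members on the log2(TPM + 1) scale, Fzd5KO minus Ctrl, at day 1 and at day 3, with bars of 1 standard error, members ordered by role, filled points for called members and open points for the others. At day 3 most chaperone and degradation genes lie right of 0, with Dnajb9 at 0.84 and Edem1 at 0.68, while Ern1, Ern2, Asns and Phgdh lie left of it.

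The sensors did not move together. Ern1, which encodes the widely expressed IRE1α, and Ern2, which encodes IRE1β of gut and airway epithelium, were lower in Fzd5KO on both days. Eif2ak3, which encodes PERK, and Atf6 rose at day 3. Xbp1 missed the threshold at day 3. Of the 5, 0 rose and 4 fell at day 1, and 2 rose and 2 fell at day 3. Over all tested genes, 2.13% were higher and 22.8% lower at day 1, and 24.3% higher and 38.5% lower at day 3. The count of lower sensors at day 3 is near that share.

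Ern1 (ENSMUSG00000020715, chr11:106394650-106487852, minus strand, GRCm38) had 17.2, 17.6 and 17.0 TPM in Fzd5KO and 25.2, 26.1 and 24.1 TPM in Ctrl at day 3. At day 1 it had 14.0, 13.3 and 13.1 TPM in Fzd5KO and 15.8, 16.9 and 16.1 TPM in Ctrl. The genotypes were separate on both days, and the Ctrl libraries of day 3 were the highest of all 12. Ern1 fell by 0.51 ± 0.048 (SE) at day 3 (limma adjusted p = 2.92e-06) and by 0.25 ± 0.048 at day 1 (adjusted p = 0.00406). The day 1 call was not made under any of the other 3 scalings tried, where Ern1 stood at -0.11 with quantile normalization, -0.10 with median-of-ratios scaling and -0.15 with rescaling. The change at day 3 exceeded that at day 1 by -0.26 ± 0.068 (adjusted p of the interaction = 0.00893).

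Ern2 (ENSMUSG00000030866, chr7:122169893-122186207, minus strand) had 11.7, 10.6 and 10.5 TPM in Fzd5KO and 18.7, 20.4 and 16.4 TPM in Ctrl at day 3. Its day 1 levels were 11.2, 11.4 and 11.5 TPM in Fzd5KO and 17.5, 17.1 and 15.7 TPM in Ctrl. All 6 Fzd5KO libraries were thus below all 6 Ctrl libraries. Ern2 fell by 0.71 ± 0.077 at day 3 (adjusted p = 1.08e-05) and by 0.53 ± 0.077 at day 1 (adjusted p = 0.000983). In mice Ern2 is known mainly from goblet cells. The summed level of 10 goblet cell markers was 5944 to 6404 TPM in Fzd5KO and 9674 to 10268 TPM in Ctrl at day 3, and 6083 to 6310 TPM in Fzd5KO and 9639 to 10517 TPM in Ctrl at day 1, and all 10 markers fell on both days with medians of -0.63 at day 3 and -0.72 at day 1. Over all tested genes, 38.5% were lower at day 3 and 22.8% at day 1. The part of goblet cells in the Ern2 result was not tested. In bulk samples, fewer cells of a type and less RNA per cell cannot be told apart.

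Atf6 had 18.2, 18.9 and 19.8 TPM in Fzd5KO and 17.4, 16.8 and 14.8 TPM in Ctrl at day 3, against 12.9, 13.0 and 12.7 TPM in Fzd5KO and 16.6, 16.4 and 15.9 TPM in Ctrl at day 1. The order of the genotypes was therefore opposite on the 2 days, without overlap on either. Atf6 rose by 0.21 ± 0.060 at day 3 (adjusted p = 0.00984) and fell by 0.32 ± 0.060 at day 1 (adjusted p = 0.00368), and the 2 changes differed by 0.53 ± 0.085 (adjusted p = 0.000373). Eif2ak3 averaged 23.8 ± 1.61 TPM in Fzd5KO and 19.6 ± 1.52 TPM in Ctrl at day 3 (SD, n = 3 each) and rose by 0.27 ± 0.10 (adjusted p = 0.0362). Without replicate 2 or 3 of either genotype at day 3, Eif2ak3 stood at 0.22 to 0.29 and was not called, nor was it called with no filter or with rescaling. At day 1 its groups overlapped and its change was -0.21 ± 0.10 (adjusted p = 0.142), which became -0.32 and was called without replicate 1 of Ctrl at day 1.

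Xbp1, the substrate of IRE1 and also a target of ATF6, had 101, 109.9 and 109 TPM in Fzd5KO and 99.2, 101 and 99.2 TPM in Ctrl at day 3. Replicates 2 and 3 of Fzd5KO stood above the rest, and replicate 1 was within 1 TPM of the highest Ctrl library. The change was 0.09 ± 0.041 (adjusted p = 0.0635). It was called at 0.13 without replicate 1 of Fzd5KO at day 3 and at 0.24 with median-of-ratios scaling, and was -0.077 with quantile normalization. At day 1 Xbp1 averaged 87.9 ± 2.36 TPM in Fzd5KO and 101 ± 3.50 TPM in Ctrl and fell by 0.20 ± 0.041 (adjusted p = 0.00539), a call not made under the other 3 scalings.

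At day 3 the ER chaperones were mostly higher in Fzd5KO. On that day, 12 of 14 rose in Fzd5KO, 0 fell and 2 were not called, with a median of 0.33. Their summed level was 3124 to 3254 TPM in Fzd5KO and 2534 to 2640 TPM in Ctrl at day 3. At day 1 it was 2237 to 2377 TPM in Fzd5KO and 2501 to 2580 TPM in Ctrl, and 0 of 14 rose, 6 fell and 8 were not called. Over all tested genes, 24.3% were higher and 38.5% lower at day 3, and 2.13% higher and 22.8% lower at day 1. The sums did not overlap between genotypes on either day, and their order was opposite on the 2 days. At day 3, 10 chaperones were higher and 2 lower with quantile normalization, 13 and 0 under median-of-ratios scaling, and 11 and 1 with rescaling. At day 1, 0 were higher and 1 lower, 2 higher and 0 lower, and 0 higher and 0 lower under the same 3 scalings, so the day 1 falls of the group depend on scaling. The shares over all tested genes are for TPM as deposited only.

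Hspa5 (ENSMUSG00000026864, chr2:34771970-34777547, plus strand) encodes BiP, the ER member of the HSP70 family that binds unfolded chains and also holds the sensors inactive. It had 383, 400.1 and 394 TPM in Fzd5KO and 309, 302 and 292 TPM in Ctrl at day 3. At day 1 the values were 326, 323 and 318 TPM in Fzd5KO and 339.6, 356 and 334 TPM in Ctrl. The Fzd5KO libraries of day 3 were the highest of the 12 and the Ctrl libraries of day 3 the lowest. Hspa5 rose by 0.38 ± 0.033 at day 3 (adjusted p = 1.54e-06). Its change of -0.089 ± 0.033 at day 1 missed the threshold (adjusted p = 0.0727) and was positive under 2 of the other scalings, called higher with median-of-ratios scaling (0.074).

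The letters just upstream of the RefSeq start of Hspa5 are shown because BiP is the standard target of this response. The 150 bases before its RefSeq start (chr2:34771940-34772089, GRCm38.p6, plus strand, 5′ to 3′) hold 1 match to the ER stress response element (ERSE), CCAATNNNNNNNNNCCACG, the composite site of the factor NF-Y with ATF6 or XBP1. Capitals mark the match, which begins 65 bases before the RefSeq start. The GENCODE span given above begins further upstream, at chr2:34771970, so the match lies inside that span.
Hspa5: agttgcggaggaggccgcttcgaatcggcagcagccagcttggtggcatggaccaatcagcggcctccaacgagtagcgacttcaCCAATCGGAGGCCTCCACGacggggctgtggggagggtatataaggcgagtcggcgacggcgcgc

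The co-chaperones of the DnaJ class hand clients to BiP and stimulate its ATPase. Dnajb9 (ENSMUSG00000014905, chr12:44205559-44210326, minus strand), a well-known target of spliced XBP1 that encodes ERdj4, had 20.7, 22.0 and 21.0 TPM in Fzd5KO and 12.4, 11.5 and 10.5 TPM in Ctrl at day 3. Its day 1 values were 12.1, 12.2 and 12.2 TPM in Fzd5KO and 15.1, 13.9 and 13.7 TPM in Ctrl. The day 3 Fzd5KO libraries stood well above the other 9, and at day 1 the genotypes were apart in the opposite order. Dnajb9 rose by 0.84 ± 0.061 at day 3 (adjusted p = 3.72e-07). It fell by 0.21 ± 0.061 at day 1 (adjusted p = 0.0301), but this call ended, at -0.17 to -0.23, when any of the 3 Fzd5KO libraries or replicate 1 or 2 of Ctrl was left out, and under the other 3 scalings.

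Dnajb11, which encodes ERdj3, had 101, 104 and 102 TPM in Fzd5KO and 74.8, 69.0 and 68.1 TPM in Ctrl at day 3, groups that were far apart. It rose by 0.53 ± 0.039 (adjusted p = 3.88e-07), and its change at day 1 was -0.080 ± 0.039 (adjusted p = 0.157). Sdf2l1, a partner of ERdj3, rose by 0.30 ± 0.039 at day 3, with means of 38.4 ± 0.447 TPM in Fzd5KO and 31.0 ± 0.460 TPM in Ctrl. Dnajc3, which encodes the co-chaperone p58IPK, fell by 0.21 ± 0.040 at day 1 and rose by 0.13 ± 0.040 at day 3 (adjusted p = 0.0148). The day 3 call of Dnajc3 was lost without replicate 2 of Fzd5KO (0.11) or of Ctrl (0.12) at day 3, and with 2 of the other scalings. Its day 1 call was not made under any of the other 3 scalings.

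Further chaperones that rose at day 3 were Hyou1, the exchange factor of BiP, by 0.48 ± 0.062, Hsp90b1, the ER member of the HSP90 family, by 0.24 ± 0.067, and the secreted or resident proteins Creld2, by 0.53 ± 0.055, and Manf, by 0.24 ± 0.050. Hyou1 averaged 129.7 ± 11.2 TPM in Fzd5KO and 92.4 ± 4.04 TPM in Ctrl at day 3. Creld2 averaged 43.8 ± 2.45 TPM in Fzd5KO and 30.1 ± 2.02 TPM in Ctrl at day 3. With TPM as deposited, none of these 4 was called at day 1, where their changes lay between -0.14 and 0.032. Manf was at 0.063 and not called at day 3 with quantile normalization, and its annotated span overlaps Rbm15b on the same strand and Dcaf1 on the opposite one. Hsp90b1 overlaps 1810014B01Rik, which reached 6.81 TPM, on the opposite strand, with 273 identical bases. It also overlaps Gm15344 on the same strand, which averaged 5.71 TPM. Reads may be split between these overlapping genes, and the strand setting of the counting was not stated.

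Calreticulin and calnexin, encoded by Calr and Canx, are lectins that hold newly made glycoproteins for folding together with the disulfide isomerase ERp57, encoded by Pdia3. Calr, the most abundant member, had 801, 808 and 804 TPM in Fzd5KO and 634, 593 and 652 TPM in Ctrl at day 3. Pdia3 had 264, 272 and 276 TPM in Fzd5KO and 211, 213 and 207 TPM in Ctrl at day 3. In both genes, and in Canx, every Fzd5KO library of day 3 was above every Ctrl library. The 3 genes rose by 0.36 ± 0.042 (Calr, adjusted p = 1.57e-05), 0.36 ± 0.031 (Pdia3, adjusted p = 1.44e-06) and 0.24 ± 0.039 (Canx, adjusted p = 0.000269). At day 1 Canx fell by 0.23 ± 0.039 and Pdia3 by 0.16 ± 0.031, while Calr changed by -0.0999 ± 0.042 and was not called. The day 1 call of Pdia3 was not made under any of the other 3 scalings. That of Canx was not made with median-of-ratios scaling or with rescaling.

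The disulfide isomerases did not follow one pattern. Pdia4 averaged 113 ± 4.45 TPM in Fzd5KO and 107 ± 1.96 TPM in Ctrl at day 3, and Pdia6 averaged 118 ± 4.53 TPM in Fzd5KO and 123 ± 1.50 TPM in Ctrl. The genotypes overlapped in both genes, with changes of 0.079 ± 0.040 (adjusted p = 0.104) and -0.056 ± 0.034 (adjusted p = 0.173). At day 1 Pdia4 fell by 0.17 ± 0.040 and Pdia6 by 0.19 ± 0.034, but neither was called there under the other 3 scalings. Scaling also decided the day 3 calls of these genes: Pdia4 was called higher with median-of-ratios scaling and lower with quantile normalization, and Pdia6 was called lower with quantile normalization and with rescaling.

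**Figure D2:**
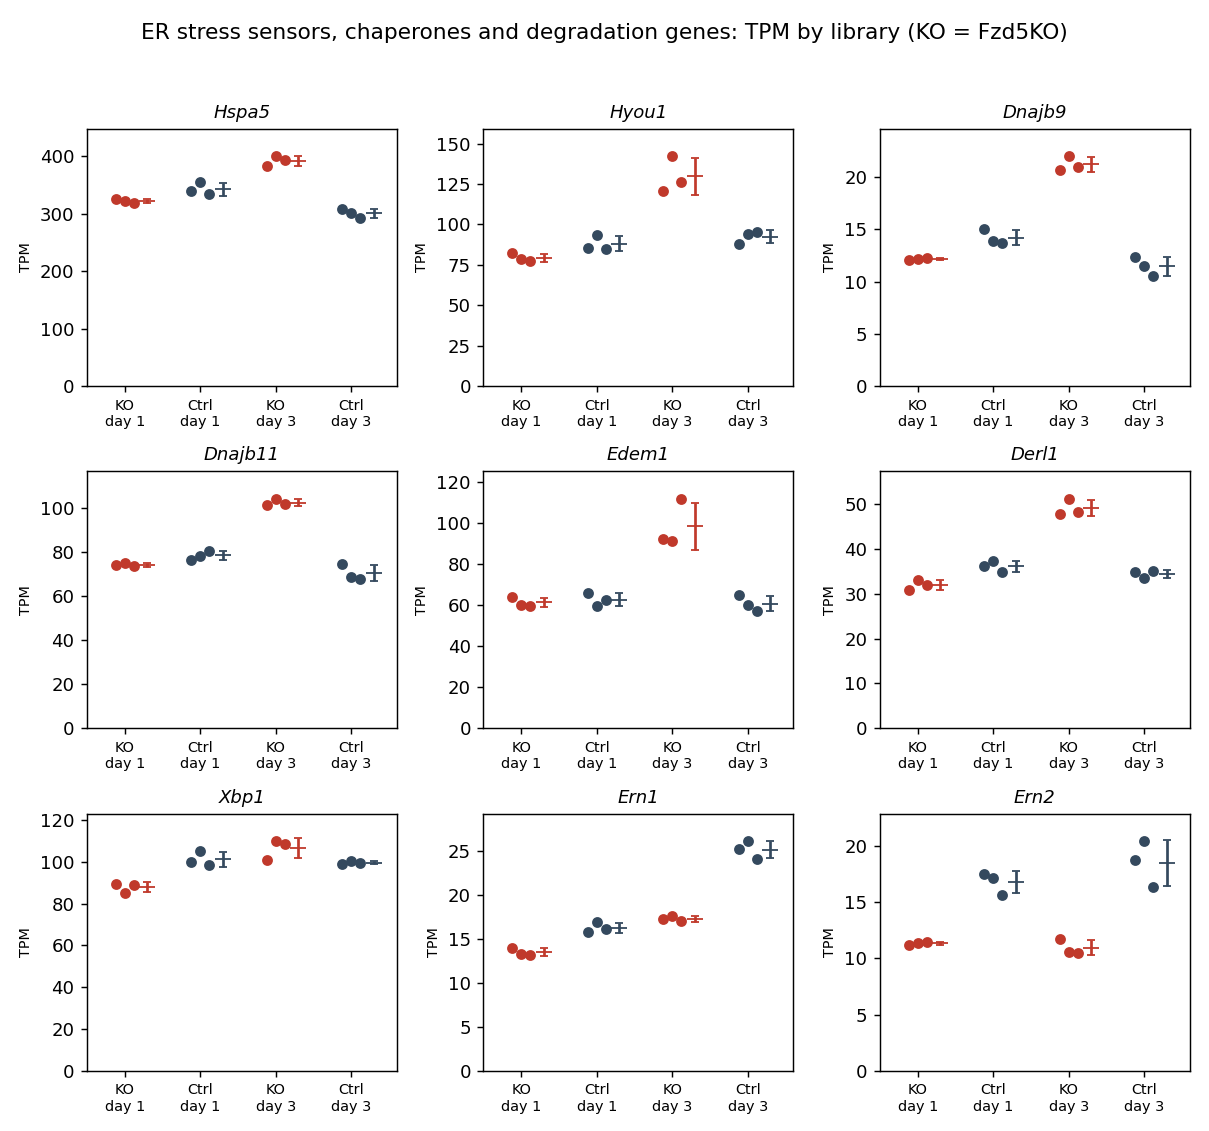
TPM of ER sensors, chaperones and degradation genes in each of the 12 libraries, with the mean and SD of each group of 3 beside its points. The day 3 Fzd5KO libraries are the highest of all for Hspa5 (383 to 400.1 TPM) and Dnajb9 (20.7 to 22.0 TPM), and the Ctrl libraries of day 3 are the highest for Ern1 (24.1 to 26.1 TPM).

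Genes that take misfolded proteins out of the ER also rose at day 3, in 5 of 7 cases, with 0 lower and 2 not called. Over all tested genes, 24.3% were higher and 38.5% lower on that day. The summed level of these 7 members was 477 to 503 TPM in Fzd5KO and 352 to 382 TPM in Ctrl at day 3, and 358 to 362 TPM in Fzd5KO and 384 to 407 TPM in Ctrl at day 1. Edem1 (ENSMUSG00000030104, chr6:108828641-108859356, plus strand), which directs misfolded glycoproteins to degradation, had 92.2, 91.2 and 111.9 TPM in Fzd5KO and 64.9, 60.3 and 57.3 TPM in Ctrl at day 3. Its day 1 values were 64.1, 60.1 and 59.8 TPM in Fzd5KO and 66.1, 59.5 and 62.6 TPM in Ctrl. The groups overlapped at day 1 and were far apart at day 3, with replicate 3 of Fzd5KO the highest. Edem1 rose by 0.68 ± 0.077 at day 3 (adjusted p = 1.40e-05), and its change at day 1 was -0.031 ± 0.077 (adjusted p = 0.791).

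The ubiquitin ligase of this pathway is HRD1, encoded by Syvn1, which works with the adaptor encoded by Sel1l. Sel1l had 106, 105 and 105 TPM in Fzd5KO and 80.8, 84.9 and 75.7 TPM in Ctrl at day 3 and rose by 0.39 ± 0.047 (adjusted p = 2.46e-05). Syvn1 had 40.7, 40.5 and 40.4 TPM in Fzd5KO and 28.9, 32.4 and 26.3 TPM in Ctrl at day 3 and rose by 0.46 ± 0.072 (adjusted p = 0.000159). In both, the 3 Fzd5KO libraries were nearly equal and the Ctrl libraries were lower and more spread. Syvn1 overlaps Mrpl49 on the opposite strand, which averaged 20.7 TPM, and the labels do not say whether the counting used the strand.

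Derl1, a Derlin of the channel through which clients leave the ER, averaged 49.1 ± 1.82 TPM in Fzd5KO and 34.5 ± 0.863 TPM in Ctrl at day 3 and rose by 0.50 ± 0.044 (adjusted p = 1.96e-06). Herpud1, which recruits the ligase complex, averaged 108 ± 8.60 TPM in Fzd5KO and 84.1 ± 0.522 TPM in Ctrl at day 3 and rose by 0.36 ± 0.057 (adjusted p = 0.000187). At day 1 Derl1 fell by 0.17 ± 0.044 and Herpud1 by 0.22 ± 0.057. The day 1 call of each ended without replicate 1 of Fzd5KO or replicate 2 of Ctrl, that of Derl1 also without replicate 3 of Fzd5KO and that of Herpud1 also without replicate 1 of Ctrl, at -0.15 to -0.17 for Derl1 and -0.19 to -0.20 for Herpud1. Neither was called at day 1 under the other 3 scalings, where Derl1 stood at -0.061 to -0.011 and Herpud1 at -0.11 to -0.058. Derl3, between 0.42 and 1.72 TPM in the 12 libraries, and Sec61b, a subunit of the translocation channel between 70.6 and 89.4 TPM, overlapped between genotypes on both days and were not called with TPM as deposited. With median-of-ratios scaling 6 of the 7 degradation and translocation members were called higher at day 3, so that either Derl3 or Sec61b was among them. A pseudogene nearly identical to Derl1 reached 7.44 TPM.

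The promoters of the members were searched for 4 short motifs on both strands, in RefSeq windows of 300 bases that run from 250 before to 50 after each gene's start (GRCm38.p6). A window was available for 31 of the 36 members and for 27025 genes. ERSE occurred in 9 of the 31 members (29%), against 37 of all 27025 genes (0.137%). ERSE-II, ATTGGNCCACG, occurred in 2 members (6.45%), against 12 of all genes (0.0444%). Among the 9672 tested genes with a window, 18 (0.186%) had ERSE and 9 (0.0931%) had ERSE-II. The members include the standard targets on which these elements were defined, so their share is a description. The core of the XBP1 site, TGACGTGG, and the C/EBP-ATF composite site of ATF4, TGATGNAAT, occurred in 0 of 31 members. Their shares were 0.714% and 1.08% of all genes, and 1.05% and 0.548% of the tested genes with a window. Their absence from the members says only that those letters are not in these windows.

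All 11 members with a match are ER folding or degradation genes, of which 18 had a window, and 0 of the 10 integrated stress response genes had one. Of the 11, 9 were called higher at day 3, 0 lower and 2 were not called, and of the 20 members with a window and no match 12 were higher, 3 lower and 5 not called. The shares over all tested genes were 24.3% higher and 38.5% lower at day 3, so both sets held more higher genes than that. Whether the element bears on the calls was not tested. The matches below are shown because they belong to genes that rose at day 3, and Pdia6 and Derl3 because they carry the same element and were not called. Each is written 5′ to 3′ on the gene's own strand with 5 flanking bases, the match in capitals. A match on the opposite strand reads as its reverse complement, beginning CGTGG.
Hsp90b1, upstream match (chr10:86705633-86705661, minus strand): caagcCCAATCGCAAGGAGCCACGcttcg
Hsp90b1, downstream match (chr10:86705528-86705556, minus strand): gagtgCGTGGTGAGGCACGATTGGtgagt
Calr (chr8:84847070-84847098, minus strand): caacgCGTGGTCGACCCTCATTGGcccat
Canx (chr11:50325795-50325823, minus strand): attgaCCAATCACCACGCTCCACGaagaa
Dnajc3 (chr14:118937822-118937850, plus strand): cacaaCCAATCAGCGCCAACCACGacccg
Creld2 (chr15:88819515-88819543, plus strand): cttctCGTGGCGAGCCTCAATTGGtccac
Syvn1 (chr19:6046527-6046555, plus strand): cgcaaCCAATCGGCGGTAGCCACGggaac
Dnajb11, ERSE-II (chr16:22857847-22857867, plus strand): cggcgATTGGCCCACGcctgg
Herpud1, ERSE-II (chr8:94386372-94386392, plus strand): cgctgATTGGGCCACGttgga
Pdia6 (chr12:17266486-17266514, plus strand): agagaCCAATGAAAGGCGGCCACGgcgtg
Derl3 (chr10:75893237-75893265, plus strand): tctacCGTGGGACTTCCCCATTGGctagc

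**Figure D3:**
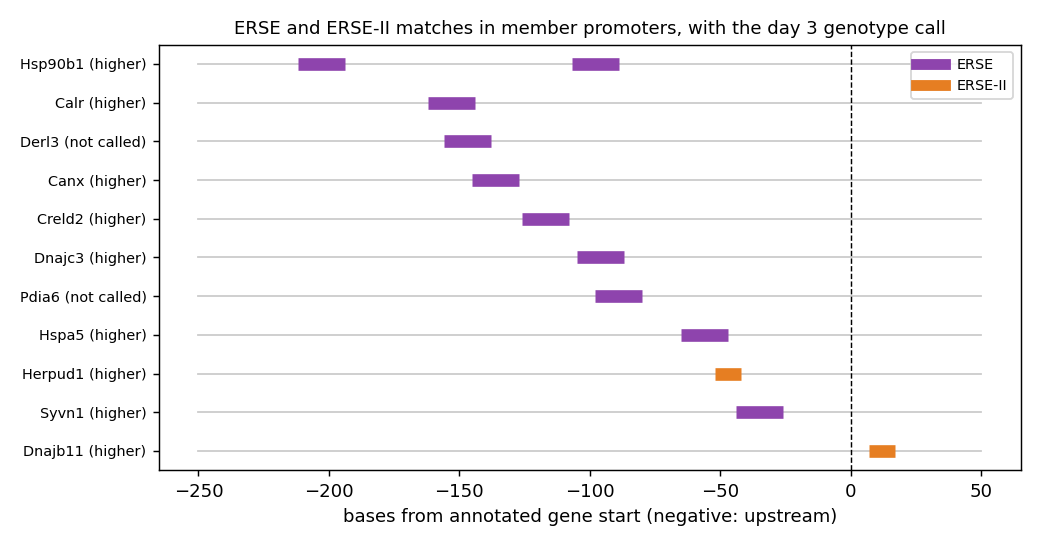
Position of each ERSE and ERSE-II match in the 11 members that hold one, in bases from the gene's RefSeq start, with upstream negative. The ERSE matches begin between 212 and 44 bases before the start, and the ERSE-II match of Dnajb11 begins 7 bases after it.

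The integrated stress response genes went in both directions. At day 3, 6 of 10 rose, 2 fell and 2 were not called, beside 24.3% higher and 38.5% lower over all tested genes. Atf4, Atf3, Ddit3, Trib3, Chac1 and Sesn2 rose, Asns and Phgdh fell, and Ppp1r15a and Psat1 were not called. Chac1 was tested only through Fzd5KO at day 3, so its place among the 6 follows partly from the choice of tested genes. At day 1, 0 rose, 1 fell and 9 were not called, beside 2.13% higher and 22.8% lower over all tested genes.

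Atf4, whose protein is the main effector of the response and is controlled largely at translation, had 82.4, 88.0 and 85.7 TPM in Fzd5KO and 81.4, 75.5 and 73.4 TPM in Ctrl at day 3. The groups were apart by little, since replicate 1 of Ctrl was close to replicate 1 of Fzd5KO. Atf4 rose by 0.15 ± 0.049 (adjusted p = 0.0189), but was not called, at 0.12 to 0.14, without replicate 2 of Fzd5KO or replicate 2 or 3 of Ctrl at day 3, nor with quantile normalization (0.029) or rescaling (0.098). At day 1 its change was -0.14 ± 0.049 (adjusted p = 0.0678).

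Atf3, a factor induced by many stresses, had 12.8, 12.2 and 9.18 TPM in Fzd5KO and 5.29, 4.91 and 2.38 TPM in Ctrl at day 3, and rose by 1.30 ± 0.20 (adjusted p = 0.000175). Replicate 3 was the lowest of both genotypes, and the groups stayed apart. At day 1 Atf3 had 6.17, 5.31 and 6.03 TPM in Fzd5KO and 7.40, 7.81 and 6.81 TPM in Ctrl, a change of -0.29 ± 0.20 (adjusted p = 0.318). Ddit3, which encodes CHOP, the factor tied to death under lasting ER stress, had 18.0, 17.0 and 17.4 TPM in Fzd5KO and 13.6, 12.4 and 12.3 TPM in Ctrl at day 3. It rose by 0.42 ± 0.069 (adjusted p = 0.00025), and its groups overlapped at day 1, with a change of 0.040 ± 0.069 (adjusted p = 0.697). Ddit3 overlaps Mars on the opposite strand, and a second entry named Ddit3 was at 0 in 11 libraries and at 1.38 TPM in replicate 3 of Fzd5KO at day 3. The value used is that of ENSMUSG00000025408.

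Trib3 (ENSMUSG00000032715, chr2:152337422-152344032, minus strand), a pseudokinase that ATF4 and CHOP induce and that restrains them, had 6.11, 7.01 and 5.79 TPM in Fzd5KO and 0.97, 1.30 and 1.47 TPM in Ctrl at day 3. At day 1 it had 2.27, 2.51 and 3.02 TPM in Fzd5KO and 4.35, 3.44 and 2.87 TPM in Ctrl. The day 3 groups were the highest (Fzd5KO) and the lowest (Ctrl) of the 4, and the day 1 groups lay between them and overlapped each other. Trib3 rose by 1.70 ± 0.14 at day 3 (adjusted p = 8.52e-07), the largest change of any member on either day, and its change at day 1 was -0.33 ± 0.14 (adjusted p = 0.10).

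Chac1, an enzyme that breaks down glutathione, had 1.02, 1.82 and 1.60 TPM in Fzd5KO and 0.92, 0.64 and 0.38 TPM in Ctrl at day 3, levels close to the limit for testing. It rose by 0.59 ± 0.17 (adjusted p = 0.00906), a result that follows partly from its being tested only through Fzd5KO at day 3. Sesn2, which encodes the stress-induced inhibitor of TORC1 signalling sestrin 2, averaged 7.93 ± 0.476 TPM in Fzd5KO and 6.32 ± 0.164 TPM in Ctrl at day 3 and rose by 0.29 ± 0.066 (adjusted p = 0.0029). At day 1 its Fzd5KO libraries were also above the Ctrl libraries, with a change of 0.17 ± 0.066 that missed the threshold (adjusted p = 0.0825) and was called under each of the other 3 scalings. Ppp1r15a, which encodes GADD34, the phosphatase subunit that ends the response, lay between 2.27 and 5.58 TPM, overlapped between genotypes on both days and was not called.

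ATF4 is also known to induce genes of amino acid synthesis, of which Phgdh, Asns and Psat1 are members, and none of the 3 was called higher on either day without another scaling. Phgdh (ENSMUSG00000053398, chr3:98313170-98339990, minus strand), the first enzyme of serine synthesis, had 6.74, 4.24 and 5.53 TPM in Fzd5KO and 12.5, 11.3 and 12.6 TPM in Ctrl at day 3. At day 1 it had 8.87, 8.05 and 7.76 TPM in Fzd5KO and 11.9, 14.4 and 11.0 TPM in Ctrl. Every Fzd5KO library was below every Ctrl library. Phgdh fell by 1.03 ± 0.13 at day 3 (adjusted p = 3.95e-05) and by 0.54 ± 0.13 at day 1 (adjusted p = 0.0149). The day 1 call was lost, at -0.50 and -0.43, without replicate 3 of Fzd5KO or replicate 2 of Ctrl, and under the other 3 scalings.

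Asns, which makes asparagine, had 13.6, 13.5 and 11.8 TPM in Fzd5KO and 17.0, 17.6 and 14.9 TPM in Ctrl at day 3, without overlap. It fell by 0.32 ± 0.081 (adjusted p = 0.00445). The call was not made at -0.18 with quantile normalization or at -0.19 with median-of-ratios scaling. Its change at day 1 was -0.0039 ± 0.081. Psat1, another enzyme of serine synthesis, overlapped between genotypes on both days, with changes of -0.035 ± 0.099 at day 3 and 0.19 ± 0.099 at day 1, neither of which was called. Under 2 of the other scalings, by quantiles and by median of ratios, the day 1 change of Psat1 was called higher.

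**Figure D4:**
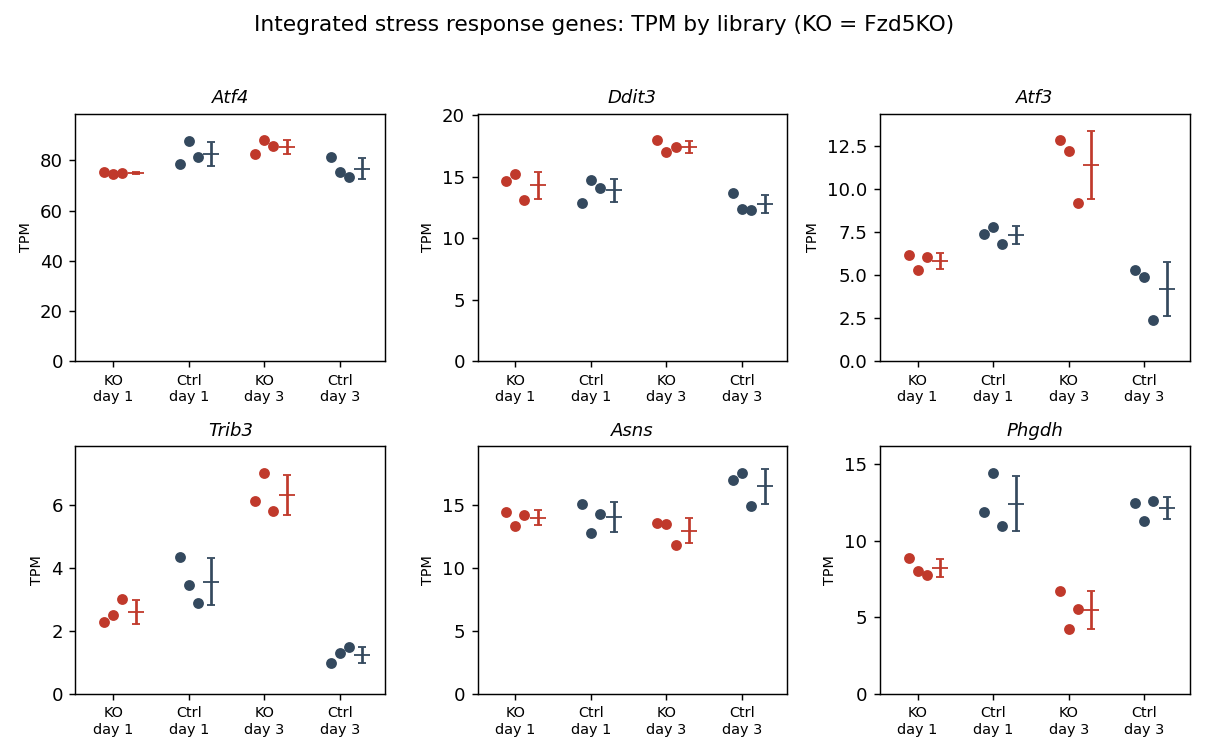
TPM of 6 integrated stress response genes in each of the 12 libraries, with the mean and SD of each group of 3. At day 3 Trib3 was 5.79 to 7.01 TPM in Fzd5KO and 0.97 to 1.47 TPM in Ctrl, while Phgdh was 4.24 to 6.74 TPM in Fzd5KO and 11.3 to 12.6 TPM in Ctrl.

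The difference between the 2 days was tested directly, as the day 3 change minus the day 1 change. It was positive and called for 27 of 36 members and negative and called for 2, Ern1 and Asns, beside 25.3% and 19.1% of all tested genes. Without Chac1, tested only through Fzd5KO at day 3, it was positive and called for 26 of 35. The members' median was 0.42, and that of all tested genes 0.0092. All 14 chaperones were among the 27, with 5 of 7 degradation genes, 3 of 5 sensors and 5 of 10 integrated stress response genes, Chac1 included. Under the other scalings 10 to 13 chaperones were called positive, and Pdia6 was called negative with quantile normalization. The differences were 2.04 ± 0.20 for Trib3, 1.04 ± 0.087 for Dnajb9, 0.67 ± 0.063 for Derl1, 0.62 ± 0.056 for Dnajb11, 0.52 ± 0.044 for Pdia3 and 0.47 ± 0.047 for Hspa5. Asns, at -0.32 ± 0.11 (adjusted p = 0.0404), lost its call, at -0.33 to -0.26, when any 1 of 7 libraries was left out, and with no filter on low genes. That of Phgdh was -0.50 ± 0.19 (adjusted p = 0.0518).

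Within genotypes, day 3 was set against day 1. In Fzd5KO 29 of 36 members rose and 2 fell, beside 34.4% and 10.5% of all tested genes, with a median of 0.45 against 0.11 for all, and without Chac1 28 of 35 rose. In Ctrl 5 rose and 6 fell, beside 25.0% and 11.0% of all, with a median of -0.017 against 0.12 for all. All 14 chaperones rose in Fzd5KO, among them Pdia3 by 0.62 ± 0.031, Calr by 0.53 ± 0.042, Dnajb9 by 0.76 ± 0.061 and Canx by 0.47 ± 0.039. Under the other scalings 11 to 13 of the 14 rose, and Manf fell with quantile normalization. In Ctrl 3 chaperones rose, the isomerase genes Pdia6 (0.27 ± 0.034), Pdia4 (0.21 ± 0.040) and Pdia3 (0.09 ± 0.031), and 3 fell, Hspa5 (-0.19 ± 0.033), Dnajb9 (-0.29 ± 0.061) and Dnajb11 (-0.16 ± 0.039).

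Ern1 rose with time in both genotypes, by 0.34 ± 0.048 in Fzd5KO and 0.60 ± 0.048 in Ctrl. Trib3 rose by 1.02 ± 0.14 in Fzd5KO and fell by 1.01 ± 0.14 in Ctrl, and Atf3 rose by 0.85 ± 0.20 in Fzd5KO and fell by 0.73 ± 0.20 in Ctrl. The Ctrl change of Atf3 was -0.45 without replicate 3 of Ctrl at day 3, and its call was lost when only the compared groups were fitted. Herpud1 rose by 0.29 ± 0.057 in Fzd5KO and fell by 0.29 ± 0.057 in Ctrl. The members that fell with time in Fzd5KO were Phgdh (-0.52 ± 0.13) and Psat1 (-0.26 ± 0.099), and the fifth to rise in Ctrl was Sesn2 (0.19 ± 0.066). The call of Psat1 in Fzd5KO was lost, at -0.30 to -0.23, when any 1 of 8 libraries was left out. In Ctrl, that of Sesn2 was lost, at 0.17 to 0.21, for any 1 of 9 libraries, and that of Pdia3, at 0.077 to 0.091, for any 1 of 6. The genotype, time and interaction comparisons use the same 12 libraries, so they are not independent of each other.

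Other genes of the same machinery were taken from lists chosen with earlier results of these data known. Of 20 further ER folding enzymes, 4 rose and 7 fell at day 3, with a median of -0.10, and 0 rose and 10 fell at day 1. The day 3 counts are near the shares over all tested genes, 24.3% higher and 38.5% lower, and at day 1 those shares were 2.13% higher and 22.8% lower. P4hb, the archetypal protein disulfide isomerase, rose by 1.13 ± 0.028 at day 3, and Ero1l, the oxidase that recharges such isomerases, by 1.02 ± 0.072. Mogs, the first glucosidase to trim N-glycans, fell by 0.60 ± 0.058 and Txndc5, an isomerase of the thioredoxin class, by 0.46 ± 0.052. At day 1 the secreted sulfhydryl oxidase gene Qsox1 fell by 0.74 ± 0.052 and Uggt1, the glycoprotein folding sensor, by 0.35 ± 0.033.

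Of 29 further degradation, translocation and export genes, 16 rose and 2 fell at day 3, with a median of 0.19, and 0 rose and 14 fell at day 1, beside 24.3% higher and 38.5% lower at day 3 and 2.13% higher and 22.8% lower at day 1 over all tested genes. Sec24d, a cargo subunit of the COPII coat, rose by 1.15 ± 0.043, Edem3 by 0.74 ± 0.041, Nploc4, a cofactor of the extracting ATPase, by 0.54 ± 0.049 and the lectin gene Os9 by 0.46 ± 0.041. Both Edem3 and Os9 fell at day 1, by 0.32 ± 0.041 and 0.21 ± 0.041. Of 34 tested among 37 other stress kinase and ATF4 target genes, 7 rose and 16 fell at day 3, with a median of -0.23, and 1 rose and 6 fell at day 1. The counts of higher genes at day 3 and of lower genes at day 1 are near the shares over all tested genes, 24.3% and 22.8%, and 38.5% of all genes were lower at day 3. Ppp1r15b, the constitutive counterpart of Ppp1r15a, rose by 0.81 ± 0.034 and the amino acid transporter gene Slc3a2 by 0.53 ± 0.040, while Aldh18a1, an enzyme of proline synthesis, fell by 0.66 ± 0.039 and the transporter gene Slc7a1 by 0.50 ± 0.051.

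Of 10 other ER stress factors and proteases, 4 rose and 3 fell at day 3, and 1 rose and 2 fell at day 1. The counts of lower genes on both days are near the shares over all tested genes, 38.5% at day 3 and 22.8% at day 1, and 24.3% of all genes were higher at day 3. The ER-anchored transcription factor genes Creb3l2 and Creb3l3 rose by 1.51 ± 0.081 and 1.11 ± 0.041 at day 3, and Wfs1, an ER membrane protein gene, by 1.17 ± 0.093. Bhlha15, which encodes MIST1, a factor of secretory cells, fell by 0.79 ± 0.082. Creb3l3 was the 1 gene of this list higher at day 1, by 0.22 ± 0.041.

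Cell type markers differed between genotypes as well, some lists higher and others lower. At day 3 the summed level of 10 enterocyte markers was 39718 to 41090 TPM in Fzd5KO and 18317 to 19400 TPM in Ctrl, with 9 of 10 higher. That of 10 Paneth cell markers was 5110 to 5566 TPM in Fzd5KO and 16061 to 17146 TPM in Ctrl, with all 10 lower, and that of 8 stem cell markers was 84.0 to 90.3 TPM in Fzd5KO and 660.3 to 704 TPM in Ctrl, with all 8 lower. Plasma cells, which make much of the ER machinery, were followed by 12 B and plasma cell markers, whose sum was 188 to 219 TPM in Fzd5KO and 83.3 to 95.7 TPM in Ctrl, with 9 of 10 tested higher and Tnfrsf17 at 0 in every library. T cell markers summed to 161 to 185 TPM in Fzd5KO and 42.1 to 46.4 TPM in Ctrl at day 3, with 9 of 9 tested higher, and myeloid markers to 38.6 to 42.9 TPM in Fzd5KO and 18.2 to 20.7 TPM in Ctrl, with 5 of 7 tested higher. Fibroblast and endothelial markers summed to 15.0 to 18.1 TPM in Fzd5KO and 13.3 to 15.5 TPM in Ctrl, with 1 of 5 tested higher, and 6 of 7 general epithelial markers were higher. Over all tested genes, 24.3% were higher and 38.5% lower at day 3, and the fibroblast and endothelial count is near the share higher. The part of any of these cells in the members' changes was not tested.

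**Figure D5:**
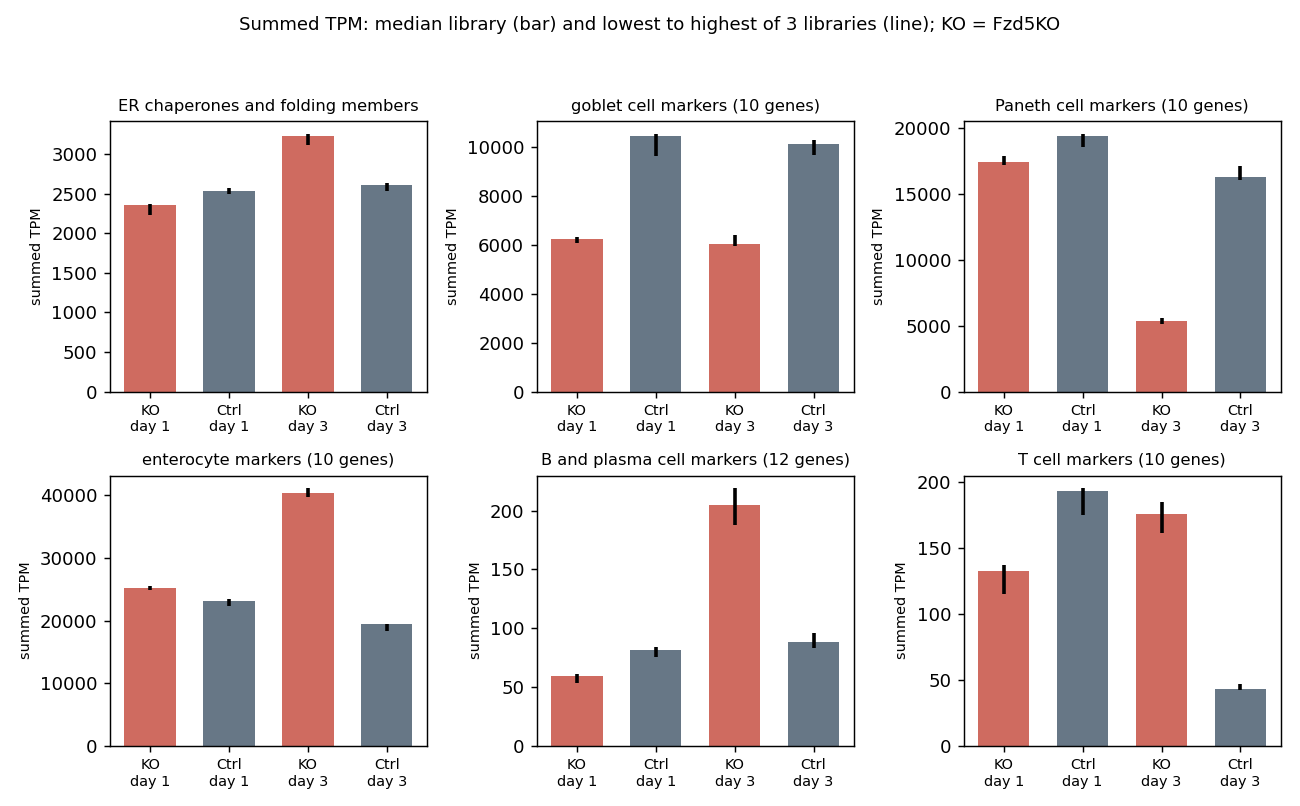
Summed TPM of the 14 chaperone members and of 5 cell type marker lists in each group, with bars at the median library and lines from the lowest to the highest of 3 libraries. At day 3 the chaperone sum was 3124 to 3254 TPM in Fzd5KO and 2534 to 2640 TPM in Ctrl, and enterocyte and lymphocyte marker sums were also higher in Fzd5KO, while goblet and Paneth cell marker sums were lower.

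Marker lists also differed between genotypes at day 1. Goblet cell markers were lower as given above, and stem cell markers summed to 137 to 143 TPM in Fzd5KO and 444 to 465 TPM in Ctrl. Paneth cell markers were lower in 7 of 10 cases, and enterocyte markers were higher in 3 and lower in 5 of 10 cases, with sums of 24821 to 25547 TPM in Fzd5KO and 22386 to 23406 TPM in Ctrl. B and plasma cell markers summed to 53.2 to 60.7 TPM in Fzd5KO and 75.8 to 84.2 TPM in Ctrl. T cell markers summed to 115 to 137 TPM in Fzd5KO and 175 to 195 TPM in Ctrl at day 1, with 3 of 9 tested lower, and myeloid markers to 22.5 to 24.3 TPM in Fzd5KO and 26.8 to 30.5 TPM in Ctrl, with 1 of 7 tested lower. Fibroblast and endothelial markers summed to 8.26 to 12.3 TPM in Fzd5KO and 14.3 to 16.8 TPM in Ctrl, with 2 of 5 tested lower. Over all tested genes, 2.13% were higher and 22.8% lower at day 1. The T cell, myeloid and fibroblast counts, of few genes each, are not far from the share lower. The general epithelial markers overlapped between genotypes, at 4296 to 4467 TPM in Fzd5KO and 4264 to 4393 TPM in Ctrl. The part of any of these cells in the day 1 changes was not tested. The 13 members lower at day 1 are to be read beside the median of all tested genes, which was -0.14 there. Of the 13, 2 were called under each of the other 3 scalings, which moved that median by 0.14, 0.14 and 0.094: Ern2 and Atf6. At day 3 the same scalings gave 22, 28 and 22 members higher. The shares of all tested genes called under these scalings were not counted.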

How the data were processed

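Total RNA of jejunal epithelial cells was sequenced by a stranded total RNA protocol, per the labels' protocols. The deposited values are TPM per gene, which the authors computed from reads; bcl2fastq 2.18, STAR 2.7.3a, RSEM and the mm10 build are named, without their roles, per the submitters' processing notes. Read totals and the strand setting were not stated. TPM are relative within a library, so abundant RNAs lower all others. From these values, log2(TPM + 1) was fitted with limma 3.58.1 in R 4.3.3, with 1 mean for each of 4 groups over 12 libraries, 8 residual degrees of freedom, an intensity trend and Benjamini-Hochberg adjustment over the 14510 genes that reached 1 TPM in 3 or more libraries. Tests are two-sided, called under 0.05. The scripts were tested on simulated data. Other pseudocounts, filters, scalings, designs and libraries left out were tried. Same-numbered libraries did not deviate together (18 correlations from -0.069 to 0.093), so numbers were not treated as pairs. The members and all lists were chosen with earlier results of these data known. By rule, each called member and 12 members of note were named per genotype comparison, with up to 8 called members per direction for the interaction and time, and up to 4 genes per related list. Coordinates are from GENCODE (GRCm38) and promoters from RefSeq (GRCm38.p6). Tables and figures used Python 3.11.15 and matplotlib 3.10.9.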

Additional observations from a re-analysis of the deposited data

Results flagged for a closer look

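For 10 members named under the interaction, limma's test of the difference between the day 3 change and the day 1 change, each Fzd5KO minus Ctrl, was past the threshold. The difference, in log2(TPM + 1), was 2.04 for Trib3, 1.04 for Dnajb9, 0.67 for Derl1, 0.62 for Dnajb11, 0.52 for Pdia3, 0.47 for Hspa5, 0.46 for Canx and 0.46 for Calr, and -0.32 for Asns and -0.26 for Ern1. With TPM as deposited, the change of the first 8 was negative at day 1 and positive at day 3. The day 1 changes of Trib3, Dnajb11, Hspa5 and Calr were not called, and the median of all tested genes was -0.14 there. The day 1 calls of Dnajb9, Derl1 and Pdia3 were not made under the other 3 scalings. That of Canx was not made with median-of-ratios scaling or with rescaling. In Ern1 and Asns the change was negative on both days, with the day 1 change of Asns near 0. Of 29 members called in the interaction test, these 10 are the 8 positive ones with the smallest p and both negative ones. Groups of 3 libraries are too small for a test of single outlying libraries.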

How the results depend on the processing

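The day 3 count of 25 members higher lay between 22 and 28 under every alternative. Among the counts, that of members higher at day 1 was 0, but 2 with quantile normalization, 4 with median-of-ratios scaling and 1 when TPM were rescaled without mitochondrial and the 20 most abundant genes; at an unadjusted p under 0.05 it was 1. The 13 lower at day 1 became 3, 2 and 2 under those scalings. The shares over all tested genes given above are for TPM as deposited and were not counted under the other scalings. The day 1 median of all tested genes was -0.000397 with quantile normalization, 0.000329 with median-of-ratios scaling and -0.046 with rescaling. Whether the members moved apart from all genes there was not tested. The 2 lower in the interaction became 1 with no filter and 5 with rescaling. The 5 higher with time in Ctrl became 3 with no filter, 2 with median-of-ratios scaling, 3 with rescaling and 3 within the compared groups, and the 6 lower became 10 with quantile normalization and 14 with the median-of-ratios method. The 2 lower with time in Fzd5KO became 1 with no filter, 5 with quantile normalization, 4 with rescaling and 1 with no trend. With a replicate block, 14 members were lower at day 1, 25 higher and 4 lower at day 3, 3 higher with time in Ctrl and 1 lower with time in Fzd5KO; 6 of 12 libraries correlated best with their own number, so the numbers do not show pairing. Leaving out 1 library gave 9 to 14 members lower at day 1, 22 to 27 higher at day 3, 1 to 3 lower in the interaction, 3 to 6 higher with time in Ctrl and 1 to 2 lower with time in Fzd5KO. The interaction could not be fitted on the compared groups alone, since it uses all 4. The cause of these moves was not tested.

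Signs turned in these cases. With median-of-ratios scaling the day 1 change was 0.0744 for Hspa5, 0.00179 for Pdia3, 0.114 for Sdf2l1, 0.0266 for Atf4 and 0.149 for Asns, and the Ctrl time change of Pdia3 was -0.038. With rescaling the day 1 change was 0.0242 for Hspa5, 0.0666 for Sdf2l1 and 0.105 for Asns. With quantile normalization it was 0.0781 for Sdf2l1 and 0.143 for Asns, and Xbp1 was -0.0771 at day 3. Leaving out single libraries moved Ddit3 at day 1 between -0.00922 and 0.0995 and Asns between -0.0655 and 0.0463. Quantile normalization and median-of-ratios scaling moved the median of all tested genes by 0.105 and 0.123 at day 3. Depth is unknown from TPM, which limits what can be said of members near 1 TPM, Chac1 and Derl3.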
